A study of Rattus norvegicus with 6 samples.

Results

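The genes described here code for 3 membrane subunits of the NADPH oxidases: Nox4, Cybb and Cyba. They were found by their Ensembl IDs (ENSRNOG00000013925, ENSRNOG00000003622 and ENSRNOG00000013014), each kept because the deposited table places it on the expected chromosome (1, X and 19), and they are 3 of the 21986 genes in that table. RNA of whole kidney was compared between 3 control and 3 FSGS libraries from male Wistar rats, all of wild-type (WT) genotype. FSGS, focal segmental glomerulosclerosis, is a scarring disease of the kidney's filtering units. It was modelled by removing the left kidney and injecting adriamycin, an anthracycline toxic to glomerular cells, into the tail vein, first 5 mg/kg at day 7 and then 3 mg/kg at day 28 counted from the operation. The control rats had saline only, with no operation named, and so kidney removal and adriamycin cannot be told apart. The labels used here give no age or time of tissue collection. The titles call all 6 samples untreated, against the treatment field. Nothing states that each library is a separate animal, and p-values here may reflect a spread that is technical.

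NADPH oxidases pass electrons from NADPH across a membrane to oxygen, and their product is superoxide or hydrogen peroxide. Cybb (gp91phox, also called Nox2) is the catalytic subunit of the phagocyte oxidase, which is switched on by cytosolic subunits that join it. Nox4, first described as a kidney oxidase of tubular cells, is a catalytic subunit that is active without those cytosolic partners and is therefore set largely by its amount. Cyba (p22phox) is the small membrane subunit that binds and stabilises both of them. The other oxidase genes (cytosolic subunits, Nox1, Duox enzymes, Rac proteins) and the markers of leukocytes and kidney cell types were not analysed here, because the sources used do not pair the other Ensembl IDs with symbols. The labelled tissue was for the same reason not checked against markers.

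The stretches just upstream of the 3 genes are shown because Cyba and Cybb changed together in the kidneys while their upstream sequences differed in base composition. The sequences are RefSeq's on GRCr8, matched by symbol and chromosome (3 of 3), printed 5′ to 3′ on the gene's strand and ending at the last base before the RefSeq gene. They lie at chr1:150313639-150313735 on the plus strand (Nox4), chrX:16065066-16065315 on the minus strand (Cybb) and chr19:67404215-67404464 on the minus strand (Cyba). The Nox4 stretch is shorter because its RefSeq promoter window overlaps the first bases of a longer gene model. Capitals mark matches, on either strand, to GGGCGG (the GC box), CCAAT (the CCAAT box) or GAGGAA (a purine-rich motif of the kind bound by ETS factors).
Nox4: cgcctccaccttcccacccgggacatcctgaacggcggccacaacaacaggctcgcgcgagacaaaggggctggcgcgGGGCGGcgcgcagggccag
Cybb: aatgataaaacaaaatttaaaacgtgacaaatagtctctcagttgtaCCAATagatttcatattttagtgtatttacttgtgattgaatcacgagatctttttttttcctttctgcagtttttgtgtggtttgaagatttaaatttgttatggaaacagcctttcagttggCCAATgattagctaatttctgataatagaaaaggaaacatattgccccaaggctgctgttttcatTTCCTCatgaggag
Cyba: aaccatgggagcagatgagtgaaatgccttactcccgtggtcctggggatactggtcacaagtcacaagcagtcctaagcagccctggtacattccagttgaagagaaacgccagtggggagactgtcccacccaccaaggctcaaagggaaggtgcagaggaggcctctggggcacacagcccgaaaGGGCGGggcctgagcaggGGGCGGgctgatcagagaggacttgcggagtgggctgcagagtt

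Over the 250 bases before the start, which for Nox4 lie partly inside the longer gene model, Nox4 was 72.8% G and C with 23 CpG, Cyba 59.6% with 6 CpG and Cybb 32% with 2 CpG. The Nox4 window was richer in G and C than 94.7% of the 33465 RefSeq promoter windows of this length, the Cyba window richer than 73.8% and the Cybb window richer than 2.87%. Nox4 and Cyba each held 2 matches to GGGCGG, which 30.5% of all windows hold; 1 of the Nox4 matches lies outside the printed stretch. Cybb held 0 of these, 2 matches to CCAAT, found in 34.0% of all windows, and 1 to GAGGAA on the opposite strand, found in 23.3%. TATAAA matched in 0 of the 3 windows and in 12.9% of all. The motifs do not overlap one another in these windows. They were chosen with the sequences in view, and a match is a run of letters, not a measured binding site.

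**Figure D1:**
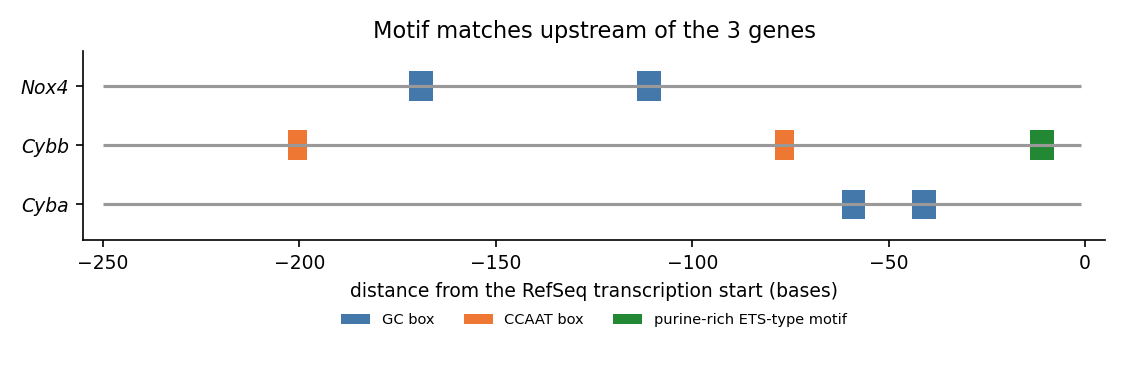
Positions of motif matches (coloured boxes) on either strand in the 250 bases before the RefSeq start of each gene, with distance from the start in bases on the horizontal axis. Nox4 and Cyba carry 2 GC boxes each, whereas Cybb carries 2 CCAAT boxes and 1 purine-rich match near the start.

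Cyba and Cybb transcripts were several-fold more abundant in FSGS kidneys than in controls, while Nox4 transcripts overlapped between the groups. Levels are in FPKM, fragments per kilobase of gene scaled to the mapped fragments of the library, which is a level per gene length and a share of each library. Changes are FSGS minus control on the scale of log2(FPKM + 1), tested by limma over the 14139 genes that averaged at least 0.5 FPKM, with Benjamini-Hochberg adjusted p-values and a threshold of 0.05. All 3 subunits passed that filter. Of the 3, 2 rose and 0 fell. Among all genes tested, 44.0% changed in either direction, 27.0% rose and 17.0% fell, so a rise alone was common in these kidneys. The members' median log2 change was 1.70, which with 3 members is the value of Cybb alone, against 0.11 over all genes tested.

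Cyba, the shared p22phox subunit, stood at 16.52, 21.00 and 14.92 FPKM in controls 1, 2 and 3, and at 79.35, 90.53 and 73.48 FPKM in FSGS 1, 2 and 3. The groups lay far apart: the lowest FSGS library was 3.50 times the highest control, while libraries of 1 group differed by at most 1.41-fold. The mean level went from 17.5 ± 3.15 to 81.1 ± 8.66 FPKM (SD, n = 3 each), a ratio of 4.64. Its log2 change was 2.16 ± 0.16 (SE, 95% confidence interval 1.80 to 2.52; limma adjusted p = 3.56e-05), higher in 3 of 3 FSGS libraries than in any control. On this scale 187 of the genes tested had a larger rise, and 98.7% had a smaller change. That rank depended on the scale: 480 genes had a larger rise on FPKM + 0.1, and 89 on FPKM + 5. In rank by FPKM among all 21986 genes, Cyba moved from 3114, 2477 and 2995 in the controls to 568, 427 and 481 in the FSGS libraries.

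Cybb, the catalytic subunit of the phagocyte oxidase, was at 4.09, 6.89 and 4.12 FPKM in controls 1, 2 and 3 and at 17.24, 23.28 and 15.02 FPKM in FSGS 1, 2 and 3. Again every FSGS library lay above every control, the lowest at 2.18 times the highest control. Control 2 was 1.69 times control 1, the widest gap between controls among the 3 subunits. Mean levels were 5.03 ± 1.61 and 18.5 ± 4.28 FPKM (SD, n = 3 each), a ratio of 3.68. The log2 change of Cybb was 1.70 ± 0.22 (SE, 95% confidence interval 1.21 to 2.20; limma adjusted p = 0.000425), and 390 genes had a larger one. On FPKM + 0.1 it was 731 genes, and on FPKM + 5 it was 286. When limma was asked for a change of more than 1 on the log2 scale, Cyba passed (adjusted p = 0.00215) and Cybb did not (adjusted p = 0.0924).

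The groups did not overlap in 2 of the 3 subunits, Cyba and Cybb; this held for 55.6% of all genes tested, and 34.6% had all FSGS libraries above all controls. A rise that passed the threshold and was at least 1 on the log2 scale was less common, at 8.63% of them, and Cyba and Cybb were both among these. Since whole kidney was sequenced, more cells that carry these transcripts and more transcript per cell cannot be told apart. Cybb is best known from phagocytes, and the part of leukocyte number in its rise was not tested.

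Nox4, the tubular oxidase, was at 4.69, 3.35 and 3.32 FPKM in controls 1, 2 and 3 and at 4.37, 6.21 and 3.32 FPKM in FSGS 1, 2 and 3. The groups overlapped: only FSGS 2 exceeded all controls, and FSGS 3 equalled the lowest control. Means were 3.79 ± 0.78 and 4.63 ± 1.46 FPKM (SD, n = 3 each), a ratio of 1.22 that is within the spread of the libraries. The log2 change of Nox4 was 0.22 ± 0.21 (SE, 95% confidence interval -0.25 to 0.68; limma adjusted p = 0.426), and it turned to -0.017 when each library was rescaled to TPM, that is, to a common sum. Without FSGS 2 it was 0.02, and without FSGS 3 it was 0.39, with Nox4 short of the threshold in both (limma adjusted p = 0.944 and 0.154). As the change of Nox4 as deposited lay close to the 0.11 of the median gene, 41.6% of the genes tested had a larger one. The interval still allows a moderate change in either direction, so these data do not show that Nox4 was the same in both groups.

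**Figure D2:**
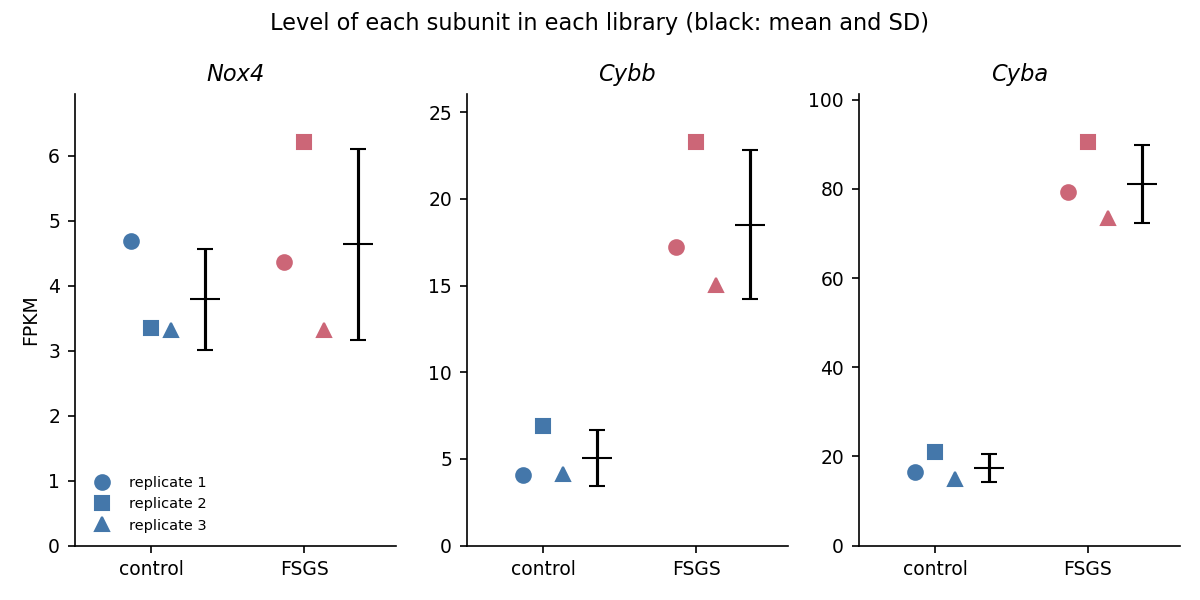
FPKM of Nox4, Cybb and Cyba in each library, by group, with marker shapes for replicate numbers and the group mean and SD in black; each panel has its own vertical axis from 0. Cybb and Cyba lie higher in all 3 FSGS libraries than in any control, and Nox4 overlaps, with FSGS 2 alone above the controls at 6.21 FPKM.

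**Figure D3:**
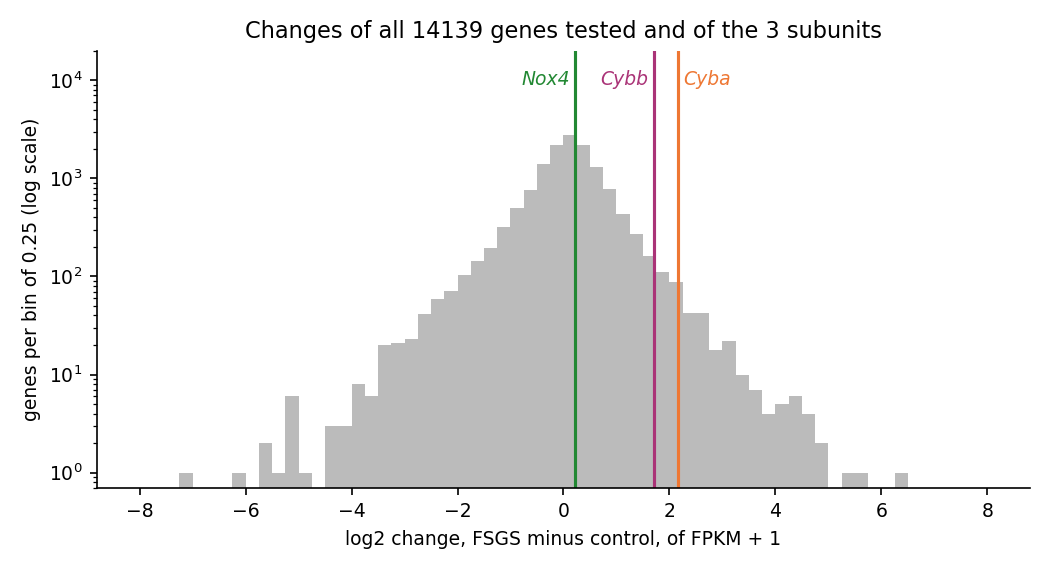
Number of genes (logarithmic vertical axis) by log2 change, FSGS minus control, for all 14139 genes tested, with vertical lines at the 3 subunits. Nox4 lies near the centre at 0.22, and Cybb at 1.70 and Cyba at 2.16 lie in the upper tail.

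By mean level the order was Cyba, Cybb, Nox4 in both groups. Cyba was the highest in all 6 libraries. In controls Cybb and Nox4 were neighbours that did not differ beyond their spread, with Cybb below Nox4 in control 1 and above it in controls 2 and 3. In FSGS that order held in every library, and the lowest Cybb value (15.02 FPKM) was above the highest Nox4 value (6.21 FPKM). As a share of Cybb and Nox4 together, Cybb made up 46.6%, 67.3% and 55.4% in controls 1, 2 and 3, against 79.8%, 78.9% and 81.9% in FSGS 1, 2 and 3, shares of FPKM and not of protein.

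Ratios between subunits within a library ask whether they changed by different amounts, and a factor common to a whole library all but cancels in them. The log2 ratio of Nox4 to Cyba was -1.79, -2.61 and -2.13 in controls 1, 2 and 3, and it was -4.15, -3.84 and -4.43 in FSGS 1, 2 and 3, computed on FPKM + 0.1. It was lower in all 3 FSGS libraries, by a mean of -1.96. The log2 ratio of Cybb to Nox4 was -0.19, 1.02 and 0.30 in the controls, against 1.96, 1.89 and 2.14 in the FSGS libraries, higher in all 3, by a mean of 1.62. Each of these had a two-sided exact permutation p = 0.1, the smallest that 3 against 3 allows, and an adjusted p = 0.15 over the 3 ratios, so neither could pass 0.05 in this design.

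The log2 ratio of Cybb to Cyba overlapped between the groups on FPKM + 0.1, and whether it did depended on the setting. It was -1.99, -1.59 and -1.83 in controls 1, 2 and 3, and it was -2.20, -1.95 and -2.28 in FSGS 1, 2 and 3. The mean difference was -0.34 (two-sided exact permutation p = 0.2, adjusted p = 0.2). On FPKM + 1 it was -0.46 and with quantile normalization -0.61, and in both all FSGS libraries lay below all controls (exact permutation p = 0.1 each, the smallest possible). With 3 against 3, these values cannot settle whether Cybb rose less than Cyba. Without control 2 that difference was -0.23 and without FSGS 2 it was -0.44, the range over single libraries left out.

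**Figure D4:**
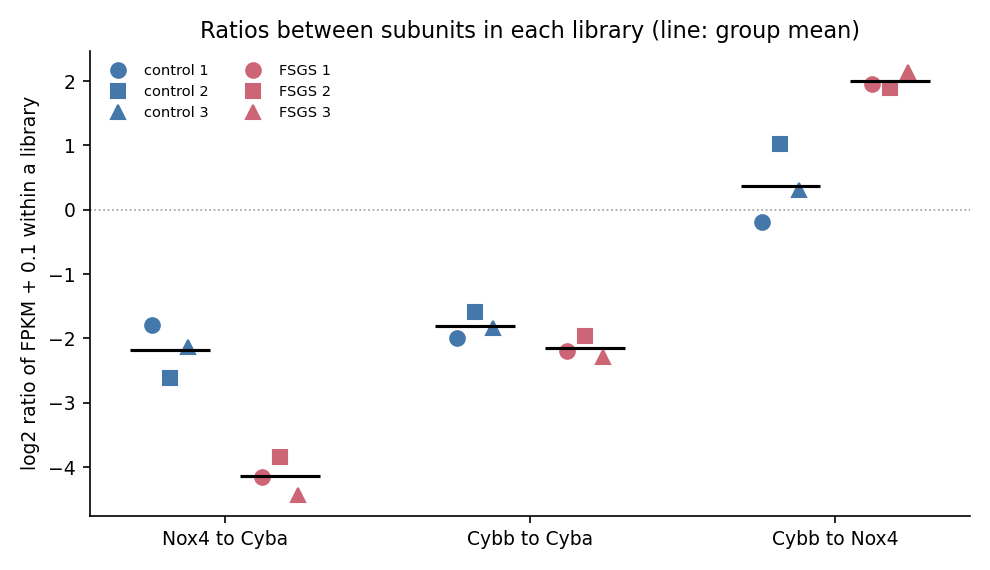
Log2 ratio of FPKM + 0.1 between pairs of subunits within each library, for controls (blue) and FSGS (red), with group means as black lines. Nox4 to Cyba is lower and Cybb to Nox4 higher in all 3 FSGS libraries, and Cybb to Cyba overlaps on this scale, though not on FPKM + 1 or with quantile normalization.

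The 3 genes shared part of their spread within a group, though the share of all genes with the same order was not computed. FSGS 2 had the highest value of its group for all 3 subunits, and FSGS 3 the lowest for all 3. Control 2 was the highest control for Cybb and Cyba, whereas Nox4 was highest in control 1. After scaling by the median of ratios, FSGS 2 was still the highest of its group for all 3 genes (5.85 for Nox4, 21.9 for Cybb and 85.2 for Cyba, in scaled FPKM). Control 2 was still the highest control for Cybb (6.93) and Cyba (21.1). FSGS 3 was then the lowest of its group for Nox4 alone (3.42), as FSGS 1 lay below it for Cybb (15.41 against 15.49) and Cyba (70.9 against 75.8).

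The makeup of the libraries also moved with the group. Mitochondrially encoded genes took 51.6% to 62.9% of the FPKM sum across controls, against 64.0% to 71.7% across FSGS libraries. That sum ran from 614047 to 691777 in the former and from 754892 to 824403 in the latter. Each column was therefore rescaled by its sum without mitochondrial genes and the 100 most abundant genes, which left Cyba at 16.6 ± 2.34 against 85.5 ± 8.49 and Cybb at 4.78 ± 1.38 against 19.5 ± 4.19 (SD, n = 3 each; rescaled FPKM, control first). Nox4 was then 3.60 ± 0.59 against 4.86 ± 1.43, still short of the threshold (log2 change 0.33, limma adjusted p = 0.166). The rises of Cyba and Cybb were thus as large with that share removed from the scale. The balance of all calls did move: 3814 genes rose and 2408 fell as deposited, 3465 and 3493 with median-of-ratios scaling, 3652 and 3356 with quantile normalization, 2012 and 3191 as TPM, and 5660 and 2284 with this rescaling. The median change of all genes was 0.11, 0.007, 0.01, -0.12 and 0.22 in that order.

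**Figure D5:**
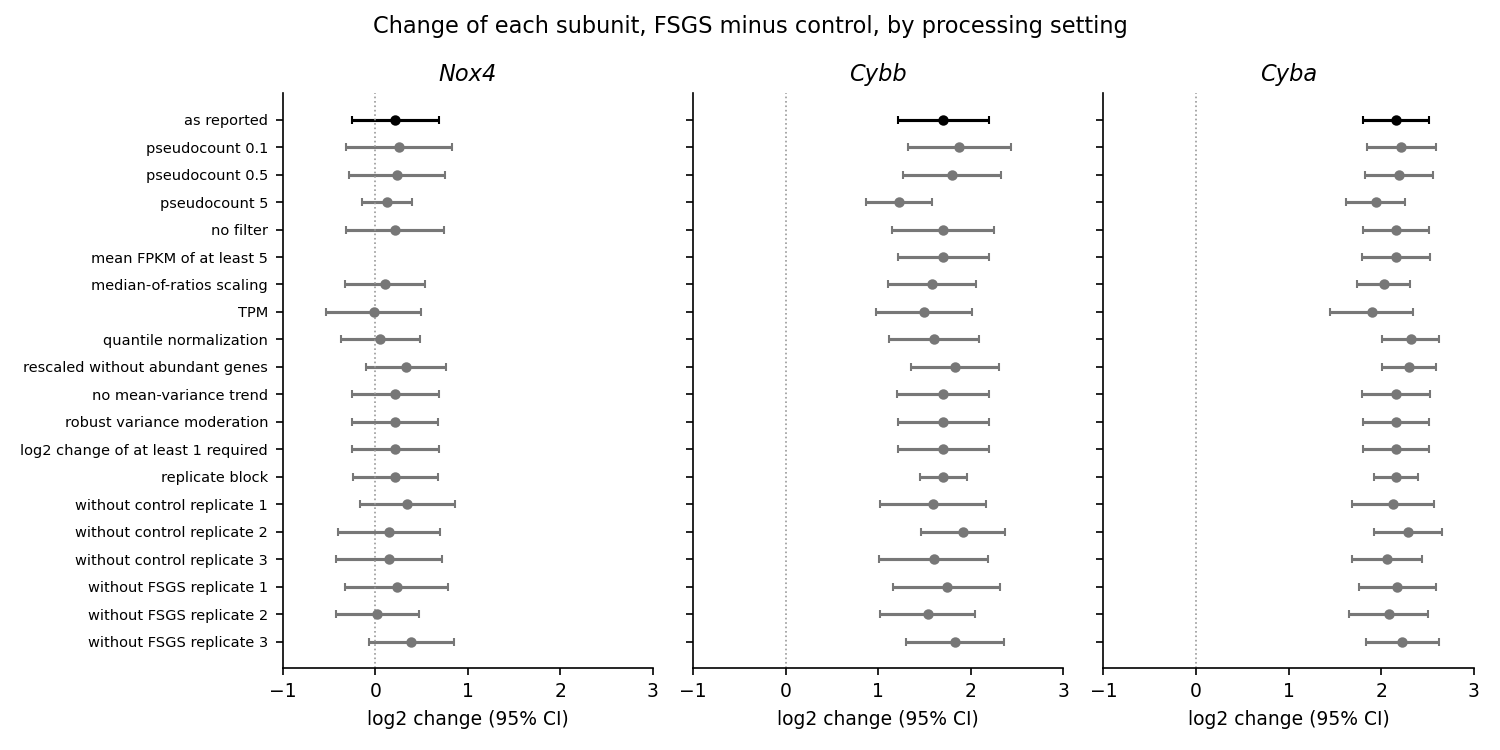
Log2 change, FSGS minus control, with 95% confidence interval for each subunit (columns) under each processing setting (vertical axis); the values reported in the text are in black. Cyba and Cybb stay above 0 in every setting shown, and Nox4 spans 0 in every one where it has a value.

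Many genes followed Cyba and Cybb closely across the 6 libraries. Of 12694 other genes averaging at least 1 FPKM, 1763 (13.9%) had a Pearson r of at least 0.95 with Cyba on the log2(FPKM + 1) scale and 1238 (9.75%) with Cybb, against 21 (0.165%) with Nox4. These correlations describe 6 libraries in 2 groups, so any gene that differs between the groups tends to follow Cyba and Cybb. The closest to Cyba was ENSRNOG00000009331 on chromosome 3 (r = 0.9998), which stood at 1.68, 2.37 and 1.53 FPKM in controls 1, 2 and 3 and at 8.83, 10.10 and 8.44 in FSGS 1, 2 and 3. The closest to Cybb was ENSRNOG00000039902 on chromosome 6 (r = 0.9994), at 5.92, 7.88 and 5.68 FPKM in the control libraries and at 14.50, 17.18 and 13.07 FPKM in the FSGS libraries, in the same order. Both shared the high control 2 and FSGS 2, as their choice by the highest r made likely.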

How the data were processed

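RNA-seq of 6 rat kidney libraries was analysed from 1 table deposited by the authors. Per the labels' protocols, poly(A) RNA was used to make strand-marked paired-end libraries. Tools listed in the submitters' processing notes, with no role given, are HISAT2 2.2.1, StringTie 2.1.6, cutadapt 1.9, edgeR and DESeq2; the build and annotation are not given in the sources used here. Per the file headers the deposited values are FPKM, which the authors scaled to gene length and mapped fragments. FPKM carries no counts, so depth is unknown. Low values were searched for read-sized steps over 15 library pairs with 16 to 136 low genes each. At most 12.8% of the log2 ratios fell in a window of 0.05. No expected share was computed, so this cannot decide whether such steps are present.

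Columns were matched to samples by the short names in the descriptions, and groups come from the titles. Values were taken as log2(FPKM + 1), with a mean filter of 0.5 FPKM, and fitted with limma 3.58.1 (R 4.3.3) on group with a mean-variance trend. The procedure was run on simulated data in which genes varied independently and few changed, whereas 44.0% were called in these data. Its outcome is not given here and does not bear on the calls. P-values were adjusted over all 14139 genes tested. Ratios used two-sided exact permutation tests. Figures were drawn with matplotlib 3.10.9. Of 47357 RefSeq genes, 0 carried an Ensembl ID, so the pathway list and markers that need symbols were not analysed. Named genes were the 3 subunits and, of the genes with the highest r with a subunit, those that rose. Members and lists were chosen with earlier results of these data known. Alternatives covered pseudocount, filter, scaling, limma options, a replicate block and leaving out libraries.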

Additional observations from a re-analysis of the deposited data

How the results depend on the processing

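Cyba kept its direction and call under all 19 alternatives (log2 change 1.90 to 2.32, limma adjusted p 9.69e-06 to 0.00215). Cybb kept its direction under 19 (1.23 to 1.91) and its call under 18. When a change of more than 1 on the log2 scale was required, Cybb (1.70) missed the threshold at limma adjusted p = 0.0924, by construction a harder test, and 678 genes were called in place of 6222. Nox4 missed the threshold under all 18 alternatives that gave a value (-0.017 to 0.39, limma adjusted p 0.154 to 1) and reversed to -0.017 with TPM. With a mean of at least 5 FPKM required Nox4 was not tested, and 3672 genes were called among the fewer tested. Leaving out single libraries gave 0.02 to 0.39 for Nox4, 1.53 to 1.91 for Cybb, 2.06 to 2.29 for Cyba and 4924 to 5551 genes called. The subunit ratios kept their direction under all 8 alternatives each. Cybb to Cyba was -0.46 with pseudocount 1 and -0.61 with quantile normalization, without overlap of the groups at exact permutation p = 0.1 in both. With the replicate number as a block, the log2 changes were 0.22 for Nox4, 1.70 for Cybb and 2.16 for Cyba with no change of call (limma adjusted p = 0.368, 0.000399 and 0.000288), and 6900 genes were called. Libraries of like number had deviations from their group means that correlated at 0.13 (number 1), 0.03 (number 2) and 0.02 (number 3). Control and FSGS libraries of unlike number correlated at -0.12 to 0.09. The numbers were not taken as pairs, though these values cannot decide whether they mark pairs. Depth, and so its limit on precision, is unknown.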

Other observations

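Cyba protein pairs with either catalytic subunit, so its transcript was also set against the sum of Nox4 and Cybb in each library, a measure chosen after the values were seen. Cyba was 1.88, 2.05 and 2.01 times that sum in controls 1, 2 and 3, a narrow range given that Nox4 and Cybb each varied more between controls. In FSGS 1, 2 and 3 it was 3.67, 3.07 and 4.01 times the sum. The mean ratio was 1.98 ± 0.09 for controls against 3.58 ± 0.47 for FSGS (SD, n = 3 each), higher in 3 of 3 FSGS libraries. The exact permutation p was 0.1 (two-sided), below which 3 against 3 cannot go. FSGS means were 4.64 times control means for Cyba, 3.68 for Cybb and 1.22 for Nox4. A higher mean ratio thus followed from values already given and is not separate support. FSGS 2, which had the most Cyba, had the lowest of the 3 FSGS ratios, and it also had the most Nox4 and Cybb. These are ratios of FPKM and say nothing of protein.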
